A study of Mus musculus with 6 samples.

Results

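The genes described here are 10 members of insulin signalling and glucose uptake, read in hearts of Trdn-as knockout (KO) and wild-type (WT) mice: Irs2, Irs1, Insr, Igf1r, Pik3r1, Akt2, Foxo1, Foxo3, Slc2a1 and Slc2a4. All 10 were among the 20254 genes listed, and all 10 were among the 13823 genes that reached a value of 10 in at least 3 libraries and were tested. Irs2 was chosen by its own values, each KO library holding more than the WT library of the same replicate number, so its genotype difference is given as a description without a test. The other 9 were taken as its neighbours in the pathway.

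Trdn-as is, by its name, an RNA antisense to Trdn, which encodes triadin of the calcium release machinery. The 6 libraries came from whole hearts of C57BL/6 mice, 3 KO, called KO-1, KO-2 and KO-3, and 3 WT, called WT-1, WT-2 and WT-3, each genotype with replicates 1 and 2 at 14 months of age and replicate 3 at 5 months. How the knockout allele was made, and whether it acts in every cell, is not given in the sources used here. Values are the authors' normalized gene-level signal, which has no unit and is not a read count, so the depth behind a value is unknown and no counting interval is given.

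Insulin and IGF-1 bind the receptor tyrosine kinases encoded by Insr and Igf1r, which phosphorylate the adaptor proteins IRS1 and IRS2. These adaptors recruit phosphatidylinositol 3-kinase (PI3-kinase), and its lipid product leads to activation of AKT kinases. AKT2 moves the glucose transporter GLUT4, encoded by Slc2a4, to the plasma membrane of heart and skeletal muscle cells, and it keeps the FOXO transcription factors out of the nucleus. In mouse liver FOXO factors and the cAMP-responsive factor CREB are known to drive Irs2 transcription.

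In these hearts Irs2 had the highest KO over WT ratio of the 10 genes in each of the 3 same-number pairs. It also had the widest range, its highest value over the 6 libraries being 9.59 times its lowest. None of the other 9 genes passed the test between genotypes. Irs1 lay above WT in every KO library and Foxo3 below WT in every KO library, without passing. Between ages, Irs2, Foxo1, Slc2a1 and Slc2a4 were higher at 14 than at 5 months and Pik3r1 was lower. Igf1r had a genotype difference that differed between the ages with all 6 libraries, a call that was lost without any of 3 of the 14-month libraries.

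Normalized totals, in units of 1e6, were 19.8 to 21.6 in KO and 19.9 to 23.5 in WT, with 41.6 to 49.4% in KO and 40.0 to 45.6% in WT from mitochondrially encoded genes. Trdn had 3429, 3460 and 5606 in KO-1, KO-2 and KO-3, against 5702, 5599.8 and 9104 in WT-1, WT-2 and WT-3 (limma adjusted p = 0.261), and Trdn-as itself was not analysed here. Y-linked genes summed to 2652, 273 and 4775 in KO and to 3046, 213 and 4102 in WT, so replicate 2 was low in both genotypes. The 8 cardiomyocyte markers, such as Myh6 and Tnnt2, were above 0 in every library. Their summed level was 610025 to 698047 in KO and 652007 and 676133 in WT-1 and WT-2, while WT-3 stood apart at 1195090. The markers were divided in this. Myh6 had 176272, 184289 and 400427 in WT-1, WT-2 and WT-3, while Actc1 had 121168, 132696 and 123204 and Ryr2 26722.1, 26920.3 and 19052.5. In whole hearts fewer cells of a type and less RNA per cell cannot be told apart.

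The sequences around the starts of Irs2 and Irs1 are shown because these genes encode the alternative adaptors of the pathway and were the members that lay above WT in all 3 pairs. Each runs from 250 bases before to 50 after the RefSeq start (GRCm38.p6, minus strand for both), at chr8:11008880-11009179 for Irs2 and chr1:82291390-82291689 for Irs1. Capitals mark CACGTG, the palindromic E-box, and in Irs1 also CGTCA, the reverse of the CRE core TGACG, which overlaps the E-box there.

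Irs2: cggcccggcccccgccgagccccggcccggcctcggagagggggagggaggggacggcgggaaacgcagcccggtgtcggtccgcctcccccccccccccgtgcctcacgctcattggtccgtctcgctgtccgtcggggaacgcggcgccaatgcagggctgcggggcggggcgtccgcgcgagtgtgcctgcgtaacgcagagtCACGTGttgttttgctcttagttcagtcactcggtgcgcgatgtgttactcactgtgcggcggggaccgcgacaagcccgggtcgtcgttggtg

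Irs1: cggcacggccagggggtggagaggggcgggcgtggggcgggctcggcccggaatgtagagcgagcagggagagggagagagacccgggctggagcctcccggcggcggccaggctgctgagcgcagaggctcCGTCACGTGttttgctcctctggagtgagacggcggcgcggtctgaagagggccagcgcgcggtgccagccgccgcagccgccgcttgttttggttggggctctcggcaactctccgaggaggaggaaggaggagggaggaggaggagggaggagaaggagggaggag

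The E-box begins at position −44 relative to the start in Irs2 and at −115 in Irs1. Promoters were given for 8 of the 10 members, in 12 windows, and 2 of the 12 held this E-box, those of Irs2 and Irs1. Of all 32851 RefSeq promoter windows of this length, 7.15% held it. The CRE core TGACG on either strand was in 5 of the 12 windows, of Irs1, Pik3r1, Akt2 (2 of its 4) and Foxo3, against 20.8% of all windows, and not in that of Irs2. The FOXO motif TGTTTAC on either strand was in 0 of the 12, against 3.65% of all windows. These matches are letters in a window and say nothing of binding. G and C made up 72.0% of the Irs2 window and 71.3% of the Irs1 window, against a median of 52.7% over all windows. The shares of all windows were not matched for this base content. The RefSeq start of Irs2 lies 471 bases from the end of the GENCODE M21 gene on the minus strand, and that of Irs1 lies 23 bases from it.

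Irs2 (chromosome 8, 10984681 to 11008458, mm10) had 619.7, 927 and 294 in KO-1, KO-2 and KO-3, against 425, 202 and 96.8 in WT-1, WT-2 and WT-3. KO-2 held the highest value and WT-3 the lowest, and the genotypes overlapped, since WT-1 lay above KO-3. Within each genotype the 5-month library was the lowest. KO averaged 614 ± 317 and WT 241 ± 168 (SD, n = 3 each). The KO over WT ratio was 1.46, 4.59 and 3.04 in pairs 1, 2 and 3. The fitted difference with age as a covariate was 1.44 log2 (SE 0.28), or 2.72-fold, with log2 differences taken on value + 1. Of all genes tested 1664, or 12.0%, were higher in KO in 3 of 3 pairs, the property by which Irs2 was picked. Of these, 31 including Irs2 had a fitted difference as large as that of Irs2 or larger.

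Irs1 (chromosome 1, 82233101 to 82291416) had 503, 441 and 431 in KO-1, KO-2 and KO-3, against 429, 365 and 247 in WT-1, WT-2 and WT-3. Every KO library lay above every WT library, with KO-3 and WT-1 almost level. KO averaged 458 ± 38.5 and WT 347 ± 92.3 (SD, n = 3 each), a fitted difference of 0.43 log2 (SE 0.16), which did not pass (limma adjusted p = 0.745). Irs2, Insr, Foxo1 and Slc2a1 overlap annotated genes on the other strand, and Irs1 overlaps Gm9747 there, while whether counting used strand is not given in the sources used here. Gm9747 had 142, 188 and 153 in KO and 176, 167 and 394 in WT, highest in the WT library where Irs1 was lowest.

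Per kilobase of annotated exon, the Irs2 level was 1.78, 3.04 and 0.987 times the Irs1 level in KO-1, KO-2 and KO-3, and 1.43, 0.800 and 0.566 times in WT-1, WT-2 and WT-3. Per length Irs2 was above Irs1 in the 14-month KO hearts and in WT-1, and below it in the remaining libraries. Whether the deposited values scale with gene length is not given in the sources used here, and on the undivided values Irs2 (425) was below Irs1 (429) in WT-1. The summed level of both per kilobase was 153, 195 and 93.7 in KO against 114, 71.9 and 42.3 in WT.

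**Figure D1:**
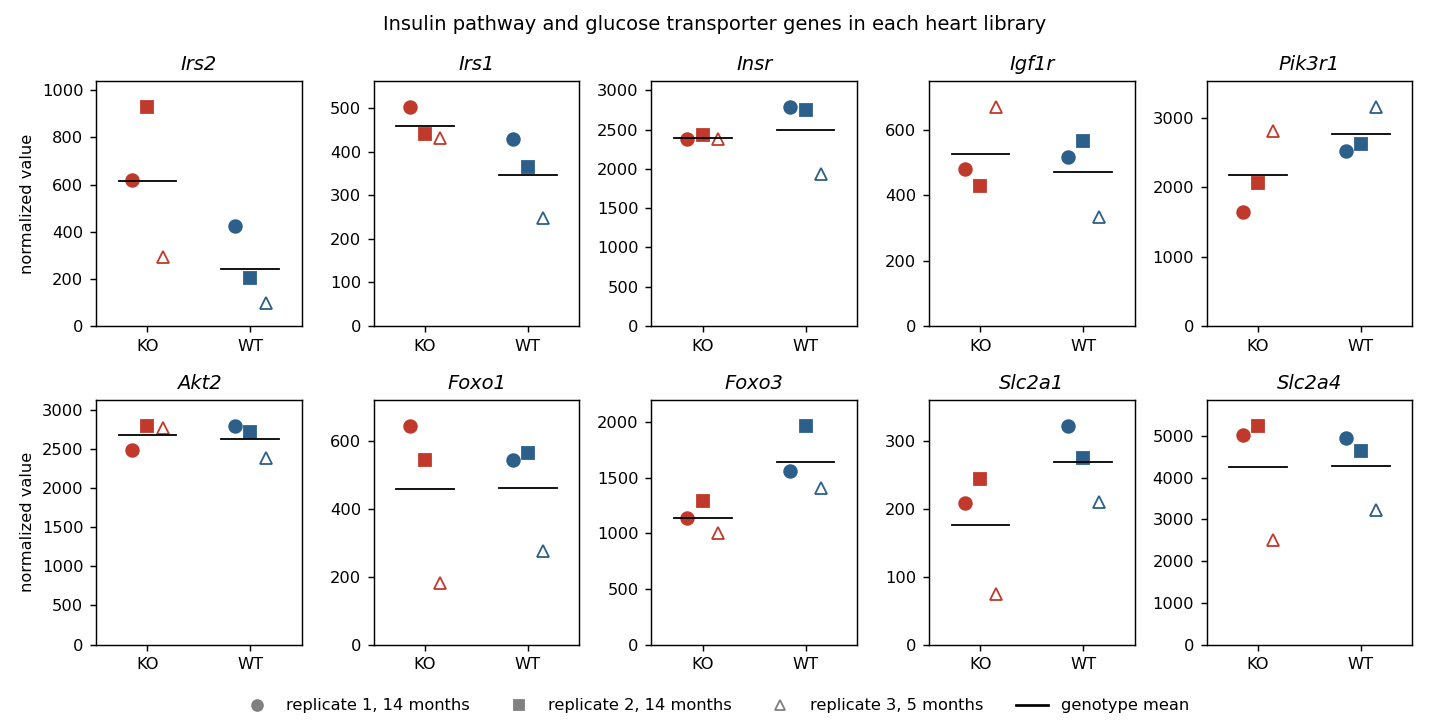
Normalized value (vertical axes from 0, no unit) of each of the 10 genes in each library, KO left of WT. Circles and squares are replicates 1 and 2 of 14 months, open triangles replicate 3 of 5 months, and lines are genotype means. Irs2 spans 294 to 927 in KO and 96.8 to 425 in WT, while Akt2 spans 2494 to 2800.1 in KO and 2386 to 2793 in WT.

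Among the receptors, Insr, the insulin receptor (chromosome 8, 3122061 to 3279617), had 2378, 2432 and 2383 in KO-1, KO-2 and KO-3, against 2785, 2744 and 1939.9 in WT-1, WT-2 and WT-3. The KO libraries lay close together and between the 5-month and the 14-month WT libraries. The fitted genotype difference was −0.035 log2 (SE 0.13, limma adjusted p = 0.947), and it changed sign under quantile normalization. The difference between 14 and 5 months was 0.013 log2 within KO and 0.51 within WT.

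Igf1r, the IGF-1 receptor (chromosome 7, 67952827 to 68233668), had 481, 427 and 669 in KO-1, KO-2 and KO-3, against 516, 565 and 334 in WT-1, WT-2 and WT-3. Both 14-month KO libraries lay below both 14-month WT libraries, while the 5-month KO library lay above the 5-month WT library. The KO over WT ratio was 0.933, 0.757 and 2.001 in pairs 1, 2 and 3. Taken at 14 months and less the one at 5 months, its genotype difference came to −1.25 log2 (SE 0.21), which passed in the limma model with an interaction term (adjusted p = 0.0406). Igf1r was the 1 gene of 9 that passed, where 2.08% of all genes did. This rests on 1 library per genotype at 5 months, and the call was lost under quantile normalization (limma adjusted p = 0.0589) and with no filter on low values (limma adjusted p = 0.137). It was also lost without KO-2 (limma adjusted p = 0.0562), without WT-1 (0.0872) and without WT-2 (0.118), while the difference stayed between −1.34 and −1.16 log2. In the same pair the 8 cardiomyocyte markers summed to 679178 in KO-3 and 1195090 in WT-3, and their part in the Igf1r difference was not tested.

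Insr, Igf1r and Slc2a4 made up the 3 members whose genotypes were apart at 14 months in 1 direction and ordered the other way at 5 months, which held for 16.4% of all genes. WT-3 held the lowest value of Irs2, Irs1, Insr, Igf1r and Akt2 and the highest of Pik3r1 among the 6 libraries. KO-3 held the lowest of Foxo1, Foxo3, Slc2a1 and Slc2a4.

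Pik3r1 encodes the regulatory subunit of PI3-kinase that binds phosphorylated IRS proteins (chromosome 13, 101680563 to 101768217). It had 1644, 2063 and 2816 in KO-1, KO-2 and KO-3, against 2518, 2627 and 3153 in WT-1, WT-2 and WT-3. Each KO library lay below the WT library of its number, but KO-3 lay above both 14-month WT libraries, so the genotypes overlapped. The fitted genotype difference was −0.38 log2 (SE 0.13, limma adjusted p = 0.745). Over the 6 libraries Pik3r1 ran opposite to Irs2, with a Pearson correlation of −0.819 of log2 values, given as a description.

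Akt2, the AKT isoform of insulin-stimulated glucose uptake (chromosome 7, 27591552 to 27640826), varied least in proportion, with a highest value 1.17 times the lowest. It had 2494, 2800.1 and 2767 in KO-1, KO-2 and KO-3, against 2793, 2719 and 2386 in WT-1, WT-2 and WT-3, and the genotypes overlapped. Its fitted difference was 0.031 log2, with a 95% interval of −0.24 to 0.30 log2.

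Foxo3 (chromosome 10, 42181841 to 42276755) encodes a FOXO factor of stress and atrophy responses. It had 1136, 1289 and 1004 in KO-1, KO-2 and KO-3, against 1565, 1969 and 1405 in WT-1, WT-2 and WT-3. All KO libraries lay below all WT libraries, and the KO over WT ratios were 0.726, 0.655 and 0.715. The fitted level in KO was 69.8% of WT (95% interval 57.0 to 85.5%), a difference of −0.52 log2 (SE 0.13) that did not pass over all genes (limma adjusted p = 0.745).

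Foxo1 (chromosome 3, 52268336 to 52353221), the FOXO factor best known from insulin control of liver genes, had 646, 546 and 183 in KO-1, KO-2 and KO-3, against 545, 566 and 276 in WT-1, WT-2 and WT-3. The 14-month libraries of both genotypes lay close together and both 5-month libraries far lower. Its fitted genotype difference was −0.13 log2 (SE 0.17), with a 95% interval of −0.52 to 0.26, and did not pass by limma.

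Slc2a1 encodes GLUT1, the transporter of basal glucose uptake, which is also abundant in endothelial cells (chromosome 4, 119108711 to 119137983). It had 209, 244 and 74.4 in KO-1, KO-2 and KO-3, against 322, 274 and 210.1 in WT-1, WT-2 and WT-3. Each KO library lay below its WT partner, most in the 5-month pair, and the genotypes overlapped because KO-2 lay above WT-3. The fitted difference was −0.76 log2 (SE 0.23, limma adjusted p = 0.745). The 6 erythroid markers summed to 10257, 19399 and 2727 in KO and 66893, 6785 and 13774 in WT, with Slc4a1 at 0 in KO-3. The 8 endothelial markers summed to 16860.3, 13191 and 9791 in KO and 15282, 15267 and 10630.2 in WT. Their part in the Slc2a1 values was not tested.

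Slc2a4, which encodes GLUT4 (chromosome 11, 69942539 to 69948188), had 5033, 5249 and 2500.3 in KO-1, KO-2 and KO-3, against 4958, 4632 and 3232 in WT-1, WT-2 and WT-3. At 14 months KO lay above WT by little and at 5 months below it. The fitted genotype difference was −0.056 log2 (SE 0.13, limma adjusted p = 0.910) and changed sign under quantile normalization. GLUT4 is also made in fat cells. The 10 adipocyte markers summed to 9177, 8766 and 12010.1 in KO and 7356, 9348 and 12084 in WT, with Lep at 0 in KO-3, and Fabp4 made up most of each sum, with 6108 to 11122 in KO and 6331 to 10588 in WT. The median KO minus WT difference of the 9 adipocyte markers tested was 0.76, 1.06 and −0.82 log2 in pairs 1, 2 and 3, and that of Slc2a4 was 0.022, 0.18 and −0.37, with the same signs. Adipoq had 133, 246 and 63.3 in KO and 65.5, 53.3 and 137 in WT. Plin1, Cidec, Cfd, Ucp1 and Cidea had the same signs as Adipoq in the 3 pairs, and the remaining tested markers did not. Pparg was below WT in all 3 pairs (−0.42, −0.096 and −0.36 log2). Fabp4 stood at 0.20, −0.46 and 0.071 and Retn at 0.54, −0.25 and −1.14. The part of adipocyte RNA in the Slc2a4 values was not tested.

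Per kilobase, the Slc2a4 level was 24.3, 21.7 and 33.9 times the Slc2a1 level in KO-1, KO-2 and KO-3, and 15.5, 17.0 and 15.5 times in WT-1, WT-2 and WT-3. The ratios of the genotypes did not overlap; this ratio was formed after the values were seen and has no test.

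Set against all genes, 0 of the 9 members other than Irs2 passed between KO and WT by limma, as did 0.0% of all genes. At an unadjusted p under 0.05 stood 4 of the 9, Irs1, Pik3r1, Foxo3 and Slc2a1, against 6.08% of all genes. The KO values were all above the WT values in 1 of the 9, Irs1, against 2.88% of all genes, and all below in 1, Foxo3, against 2.89%. Lower in 3 of 3 pairs were Pik3r1, Foxo3 and Slc2a1, against 14.6% of all genes. Since the members were listed with results of these libraries known, these shares describe the list only. Over all genes tested the median difference was −0.023 log2.

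**Figure D2:**
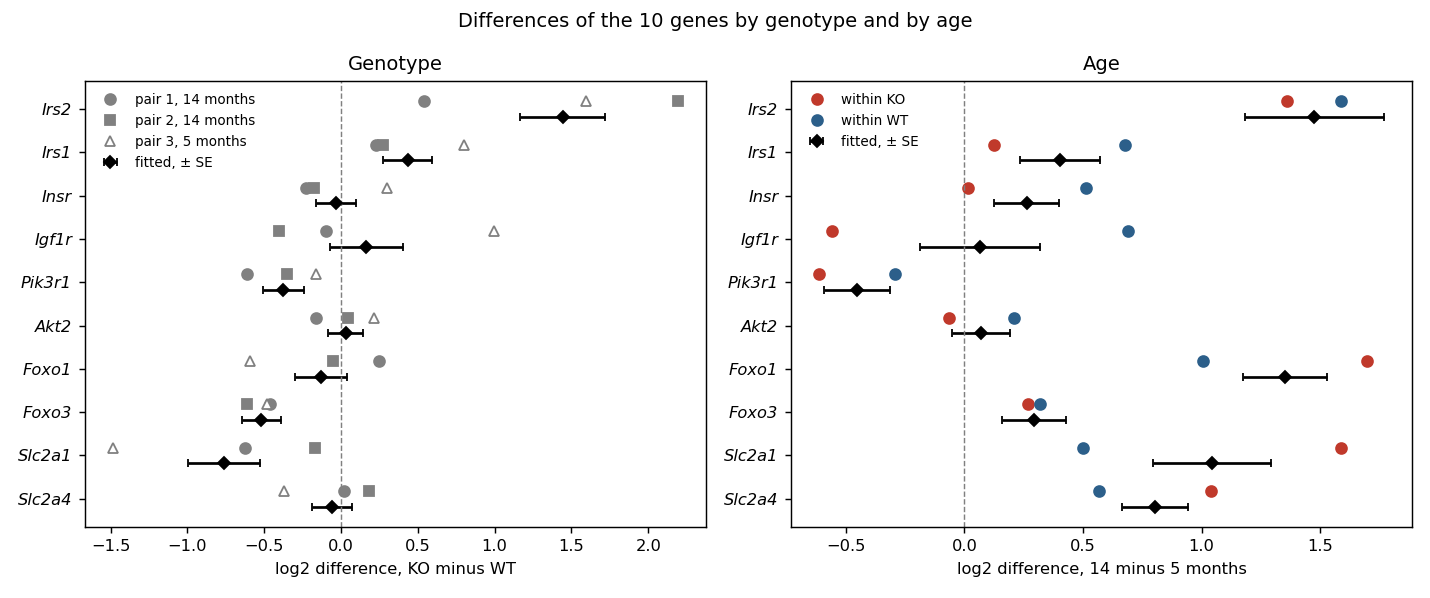
Left, log2 difference KO minus WT of each gene in the 3 same-number pairs (gray) and as fitted with age as a covariate (black, ± SE). Right, log2 difference 14 minus 5 months within each genotype (red KO, blue WT) and as fitted with genotype as a covariate (black, ± SE). The Igf1r points lie on both sides of 0 in both plots, while Irs2 lies above 0 throughout.

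The rule that picked Irs2 did not use age, but the members were listed with results of these libraries known. Both libraries low in Y-linked genes, KO-2 and WT-2 (273 and 213), were of 14 months, while both 5-month libraries were high (4775 and 4102). The part of this Y-linked difference in the age calls was not tested. By limma with genotype as a covariate, 5 of the 10 passed between 14 and 5 months, 4 higher and 1 lower at 14 months, where 33.7% of all genes passed, 17.7% higher and 16.0% lower. Irs2 averaged 544 ± 308 at 14 months (SD, n = 4) and 196 ± 140 at 5 months (SD, n = 2). It rose by 1.48 log2 (SE 0.29, limma adjusted p = 0.00741), with 1.36 within KO and 1.59 within WT. The call needed both 5-month libraries, with a limma adjusted p = 0.0758 without KO-3 and 0.117 without WT-3.

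Foxo1 rose by 1.35 log2 (SE 0.18, limma adjusted p = 0.00150), at 576 ± 48.1 at 14 months and 229 ± 65.9 at 5 months (SD, n = 4 and 2). Slc2a4 rose by 0.80 log2 (SE 0.14, limma adjusted p = 0.00410), at 4968 ± 256 at 14 months and 2866 ± 518 at 5 months. In both genes all 14-month libraries lay above both 5-month libraries, as in 25.7% of all genes, and both kept their call when any single library was left out. Slc2a1 rose by 1.04 log2 (SE 0.25, limma adjusted p = 0.0150), with 1.59 within KO and 0.50 within WT, and lost its call without KO-3 (limma adjusted p = 0.0844).

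Cell type markers also differed between ages. Of all genes 17.7% were called higher and 16.0% lower at 14 months. Of 8 endothelial markers 4 were called higher and 1 lower by limma. They summed to 13191 to 16860.3 at 14 months and 9791 to 10630.2 at 5 months. Cdh5, the endothelial cadherin, differed by 1.35 log2 and Kdr, a VEGF receptor, by 0.97, but Erg by 0.025 and Egfl7 by −0.79. Of 8 fibroblast markers 4 were called higher and 0 lower, with Col1a1 at 1.32 log2, Dcn at 0.093 and Tcf21 at −0.33. The fibroblast sums were 17824 to 20516 at 14 months and 12359 and 18999.6 at 5 months. In both lists 7 of the 8 differences lay above 0. Of the 8 cardiomyocyte markers 1 was called higher and 4 lower. Their part in the age differences of Irs2, Foxo1, Slc2a1, Slc2a4 and Pik3r1 was not tested.

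Pik3r1 fell by 0.45 on the log2 scale (SE 0.14, limma adjusted p = 0.0390), at 2213 ± 451 at 14 months and 2984 ± 238 at 5 months. All its 14-month libraries lay below both 5-month libraries, as in 25.0% of all genes, but the call was lost under quantile normalization (limma adjusted p = 0.119) and without any of 5 of the libraries, WT-3 being the exception. Irs1 differed by 0.40 log2, Insr by 0.26, Foxo3 by 0.29, Akt2 by 0.071 and Igf1r by 0.065, and none of these passed. For Igf1r this is the mean of −0.56 log2 within KO and 0.69 within WT. Without KO-3, Irs1, Insr and Igf1r passed as higher at 14 months (limma adjusted p = 0.0217, 0.00895 and 0.0131), and without WT-3 Igf1r passed as lower (limma adjusted p = 0.0262).

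Levels between genes are set side by side per length here, though whether the deposited values scale with gene length is not given. Per kilobase of exon, Slc2a4 stood highest at 1227 ± 324 (SD over the 6 libraries), followed by Akt2 at 373 ± 24.7 and Pik3r1 at 245 ± 53.6. Foxo3 at 184 ± 45.4 and Insr at 178 ± 22.3 came next, then Irs2 at 67.6 ± 48.2, Slc2a1 at 63.4 ± 24.0, Foxo1 at 53.1 ± 21.4, Irs1 at 44.1 ± 9.61 and Igf1r at 29.7 ± 6.85. The lowest Slc2a4 value (719) lay above the highest of Akt2 (393), and the lowest of Akt2 (335) above the highest of Pik3r1 (313). From Pik3r1 downward each gene's range overlapped that of the next. The order depends on the division by length. On the undivided values Insr averaged 2398 in KO and 2489 in WT, above Foxo3 at 1143 and 1646. Igf1r, last per kilobase, averaged 526 in KO and 472 in WT, above Irs1, Foxo1 and Slc2a1 in both genotypes.

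The genes whose pattern over the 6 libraries was most like that of Irs2, by Pearson correlation of log2(value + 1) among all genes tested, were led by Nr4a1 (0.997), an immediate early nuclear receptor. Nr4a1 had 1295, 1924 and 452 in KO-1, KO-2 and KO-3, against 716, 222 and 101 in WT-1, WT-2 and WT-3, in the same order of libraries as Irs2. Fos (0.993) and Fosl2 (0.983), subunits of the AP-1 transcription factor, were also among the first 5. Fos had 177, 221 and 94.8 in KO and 121, 63.9 and 44.6 in WT. The others were Fam69a (0.993), with 108 to 141 in KO and 89.7 to 121 in WT, and Gramd4 (0.983), with 647 to 795 in KO and 509 to 736 in WT. Least like it were Brap (−0.991), Gsta1 (−0.985) and Magef1 (−0.983). The ranking covered 13822 genes over 6 libraries and is given as a description. Irs1 was the most like Irs2 of the members (0.881, rank 260), and Pik3r1 the least.

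**Figure D3:**
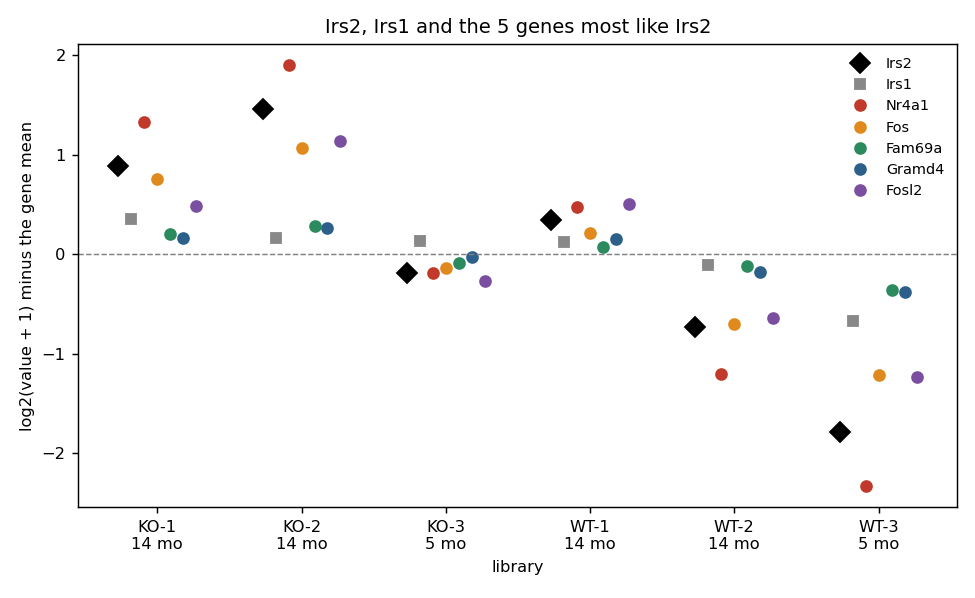
log2(value + 1) minus each gene's own mean over the 6 libraries (vertical axis) in each library (horizontal axis, KO left of WT), for Irs2 (black diamonds), Irs1 (gray squares) and the 5 genes with the highest correlation to Irs2. Nr4a1, Fos and Fosl2 lie highest in KO-2 with Irs2, and Nr4a1, with 101 in WT-3, spans more than Irs2.

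The wider pathway was read from 9 lists with 121 different genes, of which 118 were listed and 114 tested. Without Irs2, 0 of 113 passed between KO and WT, with a median of −0.042 log2. The KO values were all above the WT values in 3 of 113 (2.65%, against 2.88% of all genes) and all below them in 9 (7.96%, against 2.89%), and 19 (16.8%, against 6.08%) had an unadjusted limma p under 0.05. The lists hold the members and were chosen with earlier results of these data known. These shares, and those given below for the lists, therefore describe the lists only. Between ages 37 of 114 were called higher and 12 lower at 14 months, together 43.0%, against 33.7% of all genes. The interaction was called in 3 of 113 (2.65%, near the 2.08% of all genes), Igf1r and Igfbp7 among them. Without WT-1 or WT-2 the interaction was called in 15 or 13 of all genes, against 287 with all 6 libraries. The further genes named from the lists are those of smallest unadjusted p between genotypes, up to 4 per list, and none passed between genotypes.

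Of the receptors and ligands, 8 of 10 lay below WT, with a median of −0.16 log2. Igfbp7, an IGF-binding protein, had 1863, 1659 and 817 in KO and 1919.5, 2164 and 1979.6 in WT, so that all KO libraries lay below WT, by far the most at 5 months. Its difference at 14 minus that at 5 months was 1.06 log2 (limma adjusted p = 0.0435), which rests on 1 library per genotype at 5 months. In the 5-month pair the 8 fibroblast markers summed to 12359 in KO-3 and 18999.6 in WT-3, with a median difference of −0.68 log2. Their difference at 14 minus that at 5 months lay above 0 in 7 of the 8, from Col3a1 at 1.10 log2, with Postn at −0.40. Their part in the Igfbp7 difference was not tested. The other IGF-binding proteins named were Igfbp3 (−0.44 log2) and Igfbp6 (−0.43), and Igf2r, the receptor that clears IGF-2, stood at −0.20. Among the adaptors 5 of 12 lay above and 7 below WT, median −0.025. Grb10, an adaptor that restrains the insulin receptor, had 1145, 1194 and 707 in KO and 1379.5, 1248 and 1323 in WT (−0.41 log2), while Sh2b1 stood at 0.22 and Cbl at 0.23. By age 7 of 13 adaptors, Irs2 included, were called higher at 14 months and 0 lower, against 17.7% and 16.0% of all genes.

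PI3-kinase subunits and lipid phosphatases stood at 6 above and 6 below WT. Pik3ip1, an inhibitor of PI3-kinase, had 467, 355 and 644 in KO and 588, 851 and 865 in WT (−0.67 log2). Inppl1, the lipid phosphatase SHIP2, stood at 0.35 and the catalytic subunit Pik3cd at 0.62. Of the AKT and mTOR branch 9 lay above and 11 below WT, median −0.014, with Akt1s1 at −0.36, Tbc1d1 at −0.38, Eif4ebp1 at −0.26 and Deptor at 0.30. Among the negative regulators 4 lay above and 12 below WT. Trib3, a pseudokinase that binds AKT, had 22.5, 19.5 and 30.4 in KO and 39.0, 48.2 and 45.9 in WT (−0.87 log2), and Phlpp2, an AKT phosphatase, had 154, 163 and 164 in KO and 149, 110.3 and 75.0 in WT (0.58 log2). These values did not overlap between the genotypes, and Trim72, a ubiquitin ligase reported to act on IRS1 in mouse muscle, stood at −0.22.

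Of 21 FOXO target genes known from other tissues, Irs2 left out, 3 lay above and 18 below WT, median −0.18 log2, and 0 passed. Sesn1, a sestrin, stood at −0.42, Pik3ip1 at −0.67, Bnip3, a mitophagy receptor, at −0.36 and Klf15, a metabolic transcription factor, at −0.40. Klf15 had 528, 718 and 640.1 in KO and 757, 774 and 954 in WT, without overlap. By age 3 of the 22, Irs2 included, were called higher and 7 lower at 14 months, against 17.7% and 16.0% of all genes. The remaining FOXO factors were Foxo4 at 0.11 and Foxo6 at 0.67 log2.

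Glucose transporters and first steps of glucose use were divided 7 above and 7 below WT, median −0.020. Pygm, muscle glycogen phosphorylase, stood at −0.20, Slc2a3 at −0.49 and Gys1, muscle glycogen synthase, at 0.10. By age 5 of 14 were called higher and 0 lower at 14 months, against 17.7% and 16.0% of all genes. Of the cAMP and CREB target genes other than Irs2, 9 lay above and 2 below WT, median 0.45 log2, with 0 passed. These were led by Nr4a1 at 2.04, Nr4a3 at 1.67, Nr4a2 at 1.32 and Fos at 1.13 log2. The list's median differences were −0.15, 0.92 and 0.79 log2 in pairs 1, 2 and 3. The median thus lay on the other side in pair 1, the pair with the smallest Irs2 difference, but the genes were divided. In pair 1 Nr4a1 (0.85), Nr4a2 (0.81), Fos (0.54) and Nr4a3 (0.52) lay above WT, while Crem (−0.74) and Per1 (−0.35) lay below. By age 7 of 12, Irs2 included, were called higher and 1 lower at 14 months, against 17.7% and 16.0% of all genes.

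**Figure D4:**
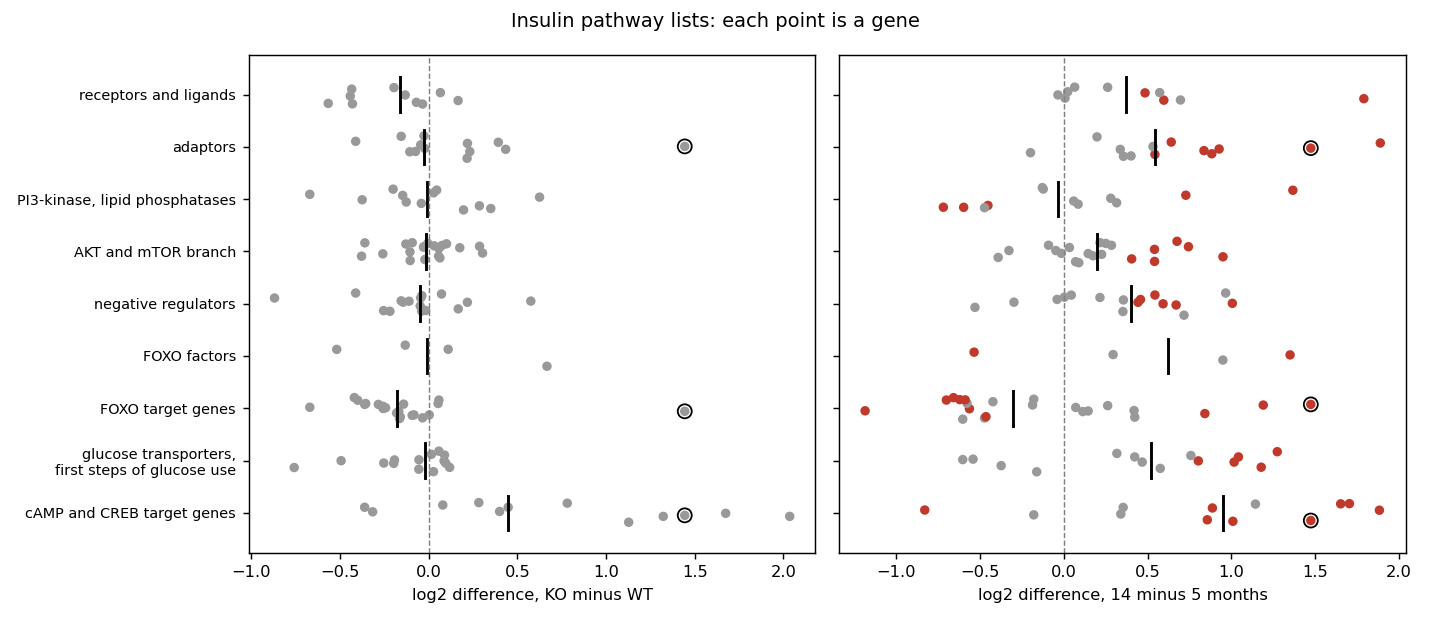
log2 differences of the tested genes of each pathway list (rows), KO minus WT on the left and 14 minus 5 months on the right. Each point is a gene, red where limma called it, black bars are list medians (Irs2 left out on the left), and open circles mark Irs2. No point is red on the left, where 0.0% of all genes were called. The cAMP and CREB targets have the highest median on both sides, 0.45 and 0.95 log2. That list was chosen with earlier results known and holds Nr4a1 and Fos, the genes most like Irs2.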

How the data were processed

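RNA from whole hearts was sequenced by BGI from Illumina libraries of total RNA, per the labels' protocols. Per the submitters' processing notes, the authors used Salmon 1.5.2 and mm10; how these were set is not stated there, nor is the normalization. The values the authors deposited are a normalized gene-level signal: none is whole, gene by gene the ratio to the geometric mean over libraries had a median between 1.0015 and 1.0061, and at most 13.2% of low values lay at whole multiples of a step (tolerance 0.01), so reads were not recovered. Symbols, positions and exon lengths came from GENCODE M21 (GRCm38, the build of mm10), which matched 20146 of 20254 genes; 108 lines without values were left out. Promoters are from RefSeq (GRCm38.p6).

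limma 3.58.1 (R 4.3.3, trend and robust options) was fitted on log2(value + 1) for the 13823 genes at 10 or more in at least 3 libraries, with Benjamini-Hochberg adjustment over all of them and a threshold of 0.05. KO against WT had age as a covariate, 14 against 5 months had genotype, and the interaction had both and their product. The scripts were tested on simulated data. The labels do not say whether hearts came from separate litters, so p-values measure the spread between these libraries. Named genes were the members, up to 4 genes of smallest p per pathway list, the 5 genes most and 3 least like Irs2, and Trdn. Members and lists were chosen with earlier results of these data known. A planned count of protein motifs was not run.

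Replicate numbers are shared between genotypes. After removal of genotype means, same-number libraries correlated at 0.390, 0.382 and 0.617 and libraries of different numbers at 14 months at 0.369 and 0.382. Within 14 months, after removal of the genotype means, the value was 0.0147. The numbers therefore carry the age, which is in the fit, and the replicate block was kept as an alternative. At 14 months they also carry the Y-linked level, low in replicate 2 of both genotypes, which only the replicate block takes in. Pair 2, with the largest Irs2 ratio, is thus the pair of low Y-linked level, and the part of that level was not tested. Further alternatives were other pseudocounts, filters and scalings, no age term, the 14-month libraries only and leaving out each library. For the interaction, leaving out each 14-month library was chosen after seeing the data.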

Additional observations from a re-analysis of the deposited data

Results flagged for a closer look

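The genotype difference of Igf1r is listed here because the interaction term passed with all 6 libraries: taken at 14 months and less the one at 5 months it was −1.25 log2 (limma interaction term, adjusted p = 0.0406). The values were 481 and 427 in KO and 516 and 565 in WT at 14 months, and 669 in KO and 334 in WT at 5 months. Over the alternatives the limma adjusted p ran from 0.0375 to 0.137, and it lay above the threshold under quantile normalization (0.0589), with no filter on low values (0.137) and in 3 of the 4 fits without a 14-month library. At 5 months each genotype had 1 library, so the spread in this test comes from the 14-month libraries alone.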

How the results depend on the processing

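KO against WT, 0 of the 9 members other than Irs2 were called under every alternative run, and the fitted Irs2 difference stayed between 1.16 and 1.77 log2. The replicate block called 0 genes (583 at an unadjusted p under 0.05), as did the fit without age, and changed no call. Genes called over the whole table numbered 14 in the 14-month libraries only and 0 to 5 when single libraries were left out. In those 14-month libraries the sign turned for Igf1r (−0.25 log2), Akt2 (−0.061), Foxo1 (0.097) and Slc2a4 (0.10). Under quantile normalization it turned for Insr (0.015) and Slc2a4 (0.029). With single libraries left out the differences ran from −0.20 to 0.022 for Insr, −0.25 to 0.33 for Igf1r, −0.061 to 0.10 for Akt2, −0.27 to 0.097 for Foxo1 and −0.13 to 0.10 for Slc2a4. Between ages, 4 or 5 members were called under every alternative run, but not always the same ones. Only Foxo1 and Slc2a4 kept their call whichever single library was left out, while Irs2, Slc2a1 and Pik3r1 each lost it in some fits. With single 14-month libraries left out 3246 to 3542 genes were called. With any single library left out the differences ran from −0.56 to 0.69 for Igf1r and −0.066 to 0.21 for Akt2. No paired analysis was possible for age because replicate numbers are nested in it. The interaction called 287 genes, but 4 with no filter and 12 under quantile normalization, and then 0 of the members. Without single 14-month libraries, a choice made after seeing the data, it called 13 to 234 genes and 0 to 1 members, and Foxo3 ran from −0.22 to 0.11 log2; without a 5-month library it has no estimate. The cause was not tested. Low depth could not be judged, since the values carry no counts, and 5 months had 1 library per genotype.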
